A study of Mus musculus with 99 samples.

Results

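The genes described here are 9 genes of de novo lipogenesis, the route by which a cell makes fatty acids from carbohydrate-derived carbon: Slc25a1, Acly, Acaca, Fasn, Elovl6, Scd1, Me1, Thrsp and Srebf1. They were taken by symbol from a count table of 35870 genes, and all 9 passed the low-count filter in every tissue. RNA was sequenced from gastrocnemius and quadriceps, both leg muscles, and from whole spinal cord of wild type male C57BL/6 mice. Mice were 10 months old and sedentary, 18 months old and sedentary, or 18 months old and exercised; what the exercise was is not given in the sources used here. These groups held 10, 10 and 13 libraries in gastrocnemius, 10, 9 and 12 in quadriceps, and 10, 10 and 13 in cord. Nothing in the labels ties libraries to separate animals, so the p-values measure the spread between these libraries.

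Citrate leaves the mitochondrion through the carrier Slc25a1 and is split by ATP citrate lyase (Acly) into acetyl-CoA. Acetyl-CoA carboxylase (Acaca) turns this into malonyl-CoA, and fatty acid synthase (Fasn) builds palmitate, using NADPH that malic enzyme (Me1) can supply. Elovl6 lengthens palmitate and Scd1 places a double bond. Srebf1 encodes the transcription factor SREBP-1, a regulator of these genes, and Thrsp (Spot 14) is a small protein that promotes lipogenesis. The pathway is best known from liver and fat; in the nervous system, myelin-forming cells make much of their own lipid.

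Whole-library facts were as follows. Library totals ran from 29063006 to 62769274 counts. The lowest member count in any library was 14, for Elovl6 in quadriceps library 3.1 (libraries are named by the number in their title). CPM values (gene counts per library size, with edgeR's TMM scaling) were computed here within each tissue, so CPM levels across tissues come from separate scalings. Fast fibre markers summed to between 106387 and 212787 CPM in the muscle libraries, and oligodendrocyte markers to between 21528 and 27257 CPM in cord, each high in the tissue its label names. Gastrocnemius libraries 3.1 and 2.2, quadriceps library 3.1 (all 10 months) and cord libraries 5.2 and 6.1 (18 months, sedentary) lay far from the rest of their tissue over all genes, and values without them are given beside the results named below as resting on them. Library pairs within groups all differed by more than sampling noise (chi-square of 3.23 or more per gene).

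Across tissues, the deposited TPM values, which allow for gene length, placed the members in different orders. In sedentary 18-month gastrocnemius the median TPM was 183 for Me1, 60.4 for Scd1, 29.9 for Srebf1, 22.0 for Thrsp, 9.77 for Acly, 8.06 for Fasn, 7.05 for Slc25a1, 4.60 for Acaca and 0.426 for Elovl6. Quadriceps of the same group had Scd1 at 216, Me1 at 169, Thrsp at 54.3, Fasn at 35.1, Srebf1 at 33.1, Acly at 18.0, Slc25a1 at 17.7, Acaca at 5.93 and Elovl6 at 1.66 TPM. Neighbours such as Acly and Slc25a1, or Fasn and Srebf1, differed by less than their own SD there. Spinal cord had Scd1 at 398, Acly at 303, Slc25a1 at 156, Fasn at 128, Srebf1 at 91.9, Me1 at 75.2, Thrsp at 69.3, Elovl6 at 36.4 and Acaca at 23.7 TPM. Me1 was the only member of the 9 with a lower median TPM in cord than in both muscles. Elovl6 had the lowest level of the 9 in both muscles. These levels are given as a description.

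**Figure D1:**
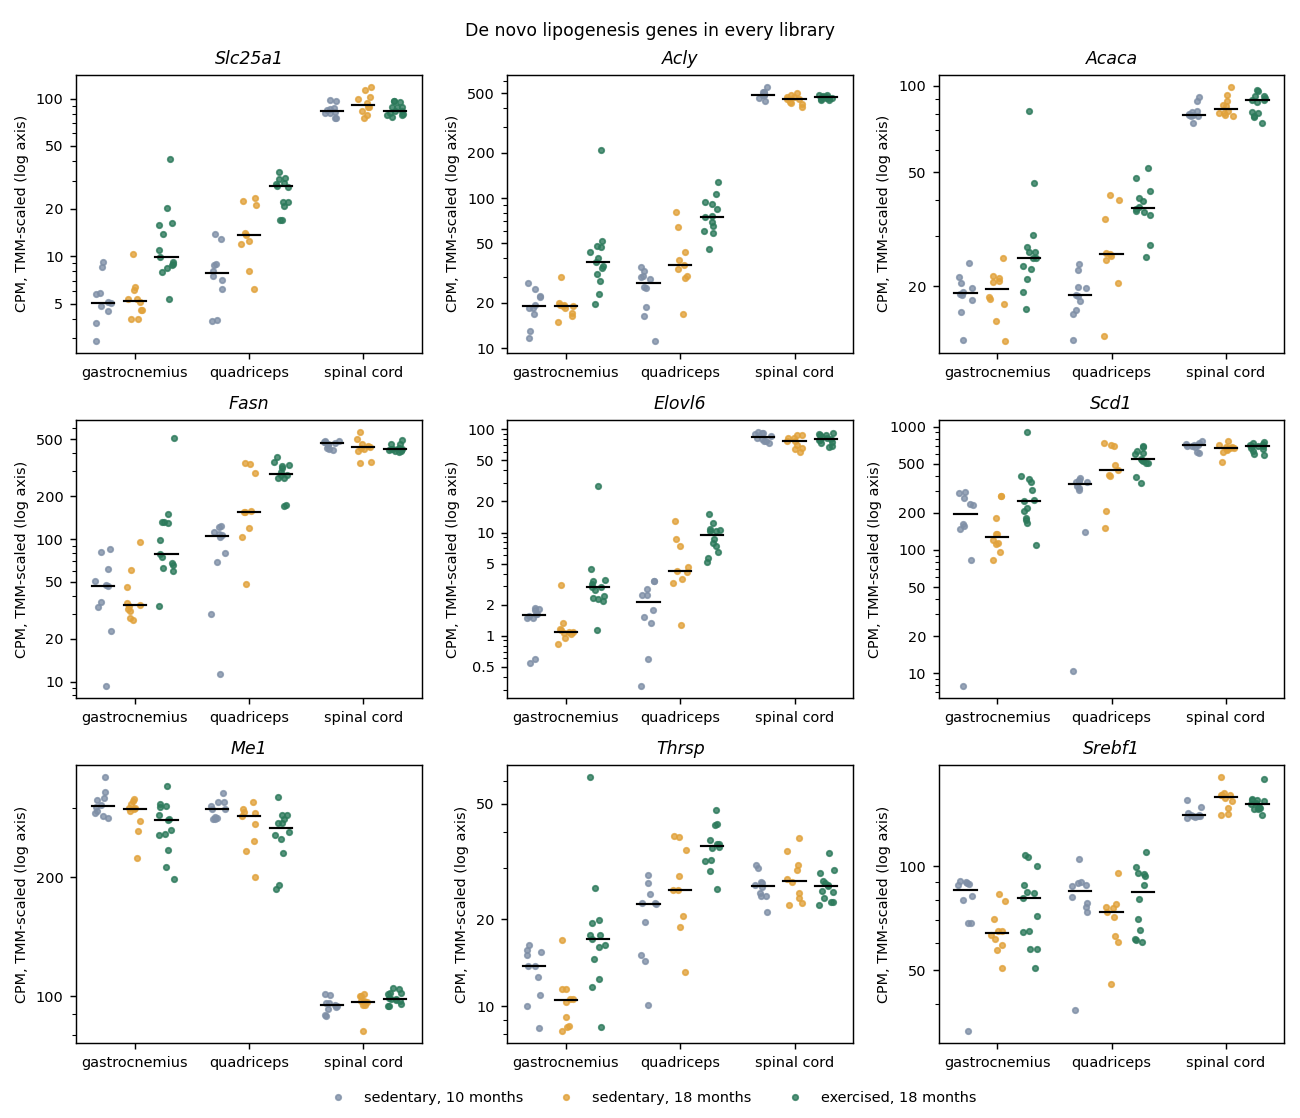
CPM of each gene (log axis) in every library, by tissue and group; points are libraries and black lines are group medians, and each tissue was scaled on its own. Exercised quadriceps libraries of Slc25a1, Acly, Acaca, Fasn and Elovl6 all lie above the 10-month libraries, while Me1 shows no such step.

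All 9 genes are protein coding. In RefSeq coordinates (GRCm38.p6) Slc25a1 lies on chromosome 16 from 17925211 to 17928219, Acly on chromosome 11 from 100476352 to 100528000, Fasn on chromosome 11 from 120805958 to 120825166, Elovl6 on chromosome 3 from 129532386 to 129638495, Thrsp on chromosome 7 from 97412933 to 97417550 and Me1 on chromosome 9 from 86581363 to 86695914. Acaca (84129635 to 84401651) and Srebf1 (60199084 to 60224186) are also on chromosome 11, and Scd1 is on chromosome 19 from 44394450 to 44407709. In GENCODE M21, exons of Srebf1 share 109 bases with Rai1 on the opposite strand, those of Elovl6 share 34 bases and those of Me1 30 bases with antisense RNAs; whether counting used strand is not given in the sources used here. Scd1 has close relatives (Scd2 to Scd4), so its counts are uncertain to the extent that reads were shared among them.

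The promoters of 5 members that varied together across muscle libraries, and of Me1, which varied apart from them, are shown so that the start regions can be compared. They run from 250 bases before to 50 after a RefSeq start (GRCm38.p6), 5′ to 3′ on the gene's strand. Capitals mark matches on either strand. The motifs searched were the E-box with the letters CACGTG, bound by helix-loop-helix factors. The CCAAT box has the letters of its name. The GC box, a site of Sp-family factors, has the letters GGGCGG. The sterol regulatory element, bound by SREBP proteins, was searched only as the exact letters TCACNCCAC, and none of these windows holds those letters.
Slc25a1: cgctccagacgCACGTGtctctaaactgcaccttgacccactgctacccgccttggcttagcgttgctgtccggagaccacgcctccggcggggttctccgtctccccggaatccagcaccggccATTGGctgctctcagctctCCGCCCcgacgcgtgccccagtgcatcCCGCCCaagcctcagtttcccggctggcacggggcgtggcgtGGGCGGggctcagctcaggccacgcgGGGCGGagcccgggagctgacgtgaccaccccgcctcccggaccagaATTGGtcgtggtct
Acly: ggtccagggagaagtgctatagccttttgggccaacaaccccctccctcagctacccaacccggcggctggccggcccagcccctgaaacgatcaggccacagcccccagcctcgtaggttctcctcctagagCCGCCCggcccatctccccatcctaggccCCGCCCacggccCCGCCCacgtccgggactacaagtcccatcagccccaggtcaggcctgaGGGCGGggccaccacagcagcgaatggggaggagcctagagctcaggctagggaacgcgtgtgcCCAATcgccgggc
Fasn: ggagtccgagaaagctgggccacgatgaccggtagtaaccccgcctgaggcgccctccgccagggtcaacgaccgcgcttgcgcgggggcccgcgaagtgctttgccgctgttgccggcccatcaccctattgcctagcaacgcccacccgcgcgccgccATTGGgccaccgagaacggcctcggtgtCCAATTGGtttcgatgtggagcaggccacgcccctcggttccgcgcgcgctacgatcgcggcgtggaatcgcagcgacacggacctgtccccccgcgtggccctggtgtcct
Elovl6: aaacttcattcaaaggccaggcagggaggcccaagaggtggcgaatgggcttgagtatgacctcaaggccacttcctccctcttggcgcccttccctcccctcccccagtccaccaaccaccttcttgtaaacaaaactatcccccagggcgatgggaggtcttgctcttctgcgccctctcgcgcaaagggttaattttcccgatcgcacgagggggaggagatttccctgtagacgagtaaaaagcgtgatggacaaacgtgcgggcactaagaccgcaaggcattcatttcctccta
Thrsp: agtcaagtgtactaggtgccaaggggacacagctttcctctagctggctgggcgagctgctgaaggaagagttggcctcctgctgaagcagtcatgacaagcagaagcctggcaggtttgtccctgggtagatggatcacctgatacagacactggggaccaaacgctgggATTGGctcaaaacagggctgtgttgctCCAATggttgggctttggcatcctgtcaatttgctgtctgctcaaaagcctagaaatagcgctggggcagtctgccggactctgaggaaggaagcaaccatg
Me1: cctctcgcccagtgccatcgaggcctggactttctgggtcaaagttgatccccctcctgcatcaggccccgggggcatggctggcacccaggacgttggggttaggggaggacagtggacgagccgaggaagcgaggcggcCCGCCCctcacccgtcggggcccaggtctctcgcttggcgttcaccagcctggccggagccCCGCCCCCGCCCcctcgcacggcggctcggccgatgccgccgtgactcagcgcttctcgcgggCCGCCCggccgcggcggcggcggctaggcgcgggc
The windows are chr16:17928170-17928469 for Slc25a1, chr11:100527951-100528250 for Acly, chr11:120824498-120824797 for Fasn, chr3:129532136-129532435 for Elovl6, chr7:97417501-97417800 for Thrsp and chr9:86695865-86696164 for Me1; all but Elovl6 are on the minus strand. Of 11 RefSeq windows for 8 of the members, 7 held a CCAAT box, 5 a GC box, 1 an E-box (Slc25a1) and 0 the sterol element. Over all 32851 promoter windows of the same length these shares were 37.4%, 35.7%, 7.15% and 1.24%. Fasn held 3 CCAAT matches, a pair of which overlap, Slc25a1 held 2 CCAAT and 4 GC box matches, and Elovl6 held no match to any of the searched motifs. The Me1 window shown lies at the annotated gene start and held 4 GC boxes and no CCAAT box; a second RefSeq window for Me1 (chr9:86687228-86687527, minus strand) held 1 CCAAT box and no GC box. A match is a run of letters in this window and does not show binding. Few windows of any gene hold the exact sterol element letters, so a missing match does not show that a promoter lacks a site.

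Exercise was compared at 18 months, exercised against sedentary, to ask what differs with exercise in older muscle. In gastrocnemius, Slc25a1, Acly and Elovl6 rose, so the genes for citrate export, citrate cleavage and palmitate elongation were higher. These were 3 of the 9 members at an adjusted p under 0.05 (edgeR's quasi-likelihood test, Benjamini-Hochberg over all 15027 genes tested), where 0.106% of all genes tested were called. Slc25a1 had lowest, median and highest values of 4.01, 5.23 and 10.38 CPM in sedentary libraries and 5.33, 9.80 and 41.4 CPM in exercised ones, which gave a fitted log2 change of 1.29 ± 0.25 (SE, adjusted p = 0.026). All 13 exercised libraries were above the sedentary median and 6 were above the highest sedentary library, so the groups overlapped. Acly went from 15.01, 19.2 and 29.7 CPM to 19.6, 37.5 and 208 CPM (1.36 ± 0.27, adjusted p = 0.026), with 10 of 13 exercised libraries above every sedentary one. For Elovl6 the values were 0.826, 1.09 and 3.08 CPM against 1.12, 2.95 and 28.3 CPM (1.93 ± 0.41, adjusted p = 0.0391), with 13 of 13 exercised libraries above the sedentary median.

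The other 6 members were not called in gastrocnemius. Fasn had 26.9, 34.2 and 95.0 CPM in sedentary and 34.1, 78.4 and 508 CPM in exercised libraries, a log2 fold change of 1.53 ± 0.36 with an adjusted p of 0.0586. Thrsp came to 0.92 ± 0.21 (adjusted p = 0.0586), Acaca to 0.65 ± 0.18 (0.0946) and Scd1 to 0.98 ± 0.35 (0.196). Srebf1, the regulator, was at 0.26 ± 0.13 (adjusted p = 0.383) and Me1, the malic enzyme, at -0.09 ± 0.07 (0.592). The median log2 fold change of the 9 members was 0.98, beside 0.0035 for all genes tested. Me1 had 224, 299 and 315 CPM in sedentary and 198, 279 and 340 CPM in exercised libraries, with both groups spread over nearly the same range. Srebf1 had 50.8, 63.9 and 83.3 CPM against 50.6, 80.8 and 108 CPM, and 6 of 13 exercised libraries lay above the highest sedentary one. Scd1, the desaturase, had 83.6, 127 and 275 CPM against 109, 250.7 and 904 CPM, and 5 exercised libraries were above every sedentary one.

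Gastrocnemius library 9.1 (exercised) was the highest of its group for 7 members, and its Elovl6 value of 28.3 CPM stood against 4.47 CPM for the next library. Without it the log2 fold changes of the called genes were 1.02 for Slc25a1, 0.92 for Acly and 1.14 for Elovl6, with 3 members still called. Library 5.4 was the lowest exercised library for 8 members. In the 10-month group library 3.1 was the lowest for 7 members, with 7.94 CPM of Scd1 against 82.3 CPM in the next. The count of called members depended on single libraries. It was 0 without library 4.3, 6.2, 7.4 or 8.2, and 1 without 6.4 or 9.2. It was 2 without 4.1, 5.2, 7.3 or Gas_10.4 (titles as the labels give them), and 4 without 9.3. It was 5 without 2.2, 5.1, Gas_10.1 or Gas_10.3, 6 without 5.4, 7 without 3.1 and 3 without any other library. Leaving out 3.1 and 2.2 together also gave 7, as did the first part of the title number as a block. In DESeq2, which called 6, the count of Elovl6 in library 9.1 was replaced (1832 by 118).

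Markers of fat cells varied with these genes. The sum of 8 adipocyte markers (Adipoq, Lep, Plin1, Cidec, Retn, Cfd, Adrb3 and Acvr1c) ranged from 35.01 to 103 CPM in sedentary 18-month gastrocnemius (median 61.3), and from 42.2 to 241 CPM in exercised (median 80.3), with library 9.1 highest. Cfd had the largest share of the sum, with medians of 36.1 CPM in sedentary and 55.0 CPM in exercised libraries. In the same order the medians were 9.05 and 9.05 for Adipoq, 4.80 and 4.81 for Plin1, and 6.09 and 5.42 for Cidec. They were 0.964 and 0.793 for Lep, 3.07 and 5.17 for Retn, 0.394 and 0.939 for Adrb3, and 1.04 and 1.06 for Acvr1c. None of the 8 markers was called for exercise there, and none was at 0 in every library. With this sum as a covariate no member was called, and the log2 fold changes were 0.71 for Slc25a1 (adjusted p = 0.0547), 0.79 for Acly (0.118) and 1.03 for Elovl6 (0.173). Whole muscle holds some fat, and in bulk tissue fewer cells of a type cannot be told apart from less RNA per cell. The part of adipocyte RNA in the gastrocnemius result was not tested.

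In quadriceps the same comparison called 1 member of 9, Acly, where 0.757% of all 14790 genes tested were called. Acly had 16.8, 35.6 and 80.5 CPM in sedentary and 45.8, 75.4 and 129 CPM in exercised libraries, a log2 fold change of 0.94 ± 0.21 (edgeR, adjusted p = 0.0239); all 12 exercised libraries exceeded the sedentary median and 5 exceeded every sedentary library. Slc25a1 followed at 0.80 ± 0.21 (adjusted p = 0.0636), with 6.16, 13.6 and 23.3 CPM against 17.0, 27.7 and 34.1 CPM. Acaca was at 0.45 ± 0.14 (0.155), Elovl6 at 0.71 ± 0.29 (0.306), Thrsp at 0.42 ± 0.16 (0.274), Fasn at 0.59 ± 0.30 (0.443) and Scd1 at 0.22 ± 0.31 (0.864). Srebf1 (0.20 ± 0.13) and Me1 (-0.06 ± 0.08) had the fitted values nearest to 0. Median CPM in sedentary and exercised quadriceps were 286 and 267 for Me1, 73.5 and 84.2 for Srebf1, and 442 and 546 for Scd1, with overlapping groups for all 3. With the first part of the title number as a block, Acly was at 0.97 (adjusted p = 0.0517) and no member was called, where 94 genes were. The member count was 0 without library 4.1, 4.3, 6.1, 6.2 or 7.4 and 2 without 3.1, 5.4, 8.2, 9.1, 9.2 or 9.3. With the adipocyte sum as a covariate Acly was at 0.91 (adjusted p = 0.0166) and Slc25a1 at 0.75 (0.00936), so 2 members were called; the sum had a median of 181 CPM in sedentary and 193 CPM in exercised quadriceps, and none of its 8 markers was called.

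**Figure D2:**
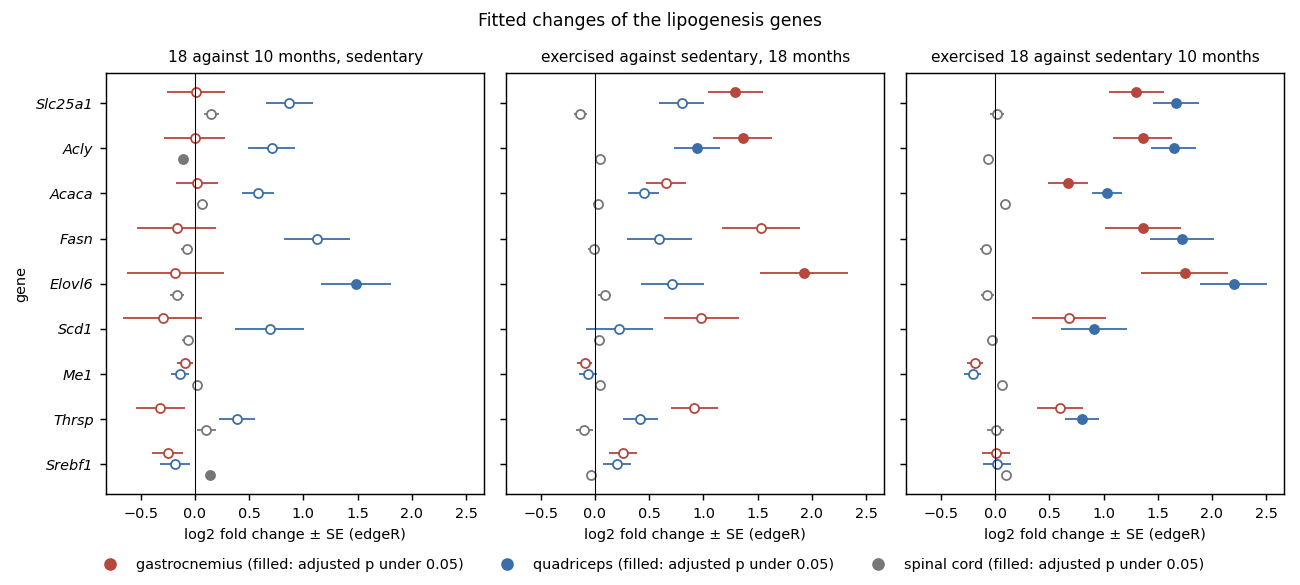
Fitted log2 fold changes ± SE of the 9 genes in 3 comparisons, by tissue; filled points passed an adjusted p of 0.05. Muscle points lie right of 0 for most members with exercise, quadriceps alone does so for ageing, and cord points lie near 0.

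The difference between sedentary ages asks what changes from 10 to 18 months. In quadriceps, Elovl6 rose from 0.328, 2.13 and 3.41 CPM to 1.27, 4.27 and 13.0 CPM, a log2 fold change of 1.49 ± 0.32 (edgeR, adjusted p = 0.0311). It was the only called member of 9, where 0.352% of 14790 genes tested were called. Of the 9 older libraries, 7 lay above every 10-month one. Slc25a1 was at 0.87 ± 0.22 (adjusted p = 0.0746), Acaca at 0.59 ± 0.15 (0.0744) and Fasn, with 11.4, 106 and 123 CPM at 10 months and 48.1, 156 and 340 CPM at 18 months, at 1.13 ± 0.31 (0.108). Acly was at 0.71 ± 0.22 (0.166), Scd1 at 0.69 ± 0.32 (0.388) and Thrsp at 0.39 ± 0.17 (0.344), while Srebf1 and Me1 had fitted values below 0.

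Quadriceps library 5.2 was the lowest 18-month sedentary library for 7 members, and 9.3 the highest for 6. Leaving out 5.2 gave 4 called members, and leaving out 1.3, 2.3 or 6.2 gave 2. None was called without 1.4, 2.2, 3.3, 8.2, 9.2 or 9.3. The sum of the adipocyte markers had a median of 103 CPM at 10 months and 181 CPM at 18 months, with the highest library at 404 CPM. Cfd had the largest share of it, with medians of 52.8 and 115 CPM. Of the 8 markers Lep fell (-1.44, adjusted p = 0.015) while the other 7 had fitted values above 0 and were not called. With the sum as a covariate Elovl6 was at 1.07 (adjusted p = 0.188) and no member was called.

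Gastrocnemius showed no such pattern. None of the 9 members was called for ageing, with 0.153% of 15027 genes called; none reached an unadjusted p under 0.05, the smallest being 0.0807, and DESeq2 and limma voom also called 0. The fitted log2 fold changes ran from -0.32 to 0.02. Median CPM at 10 and 18 months were 47.0 and 34.2 for Fasn, 5.04 and 5.23 for Slc25a1, and 19.0 and 19.2 for Acly. Srebf1 went from 85.0 to 63.9 CPM, with 10 of 10 older libraries below the younger median. The difference of the ageing effect between muscles was not called for any member (adjusted p = 1 for all 9, with 0 of 15433 genes called, 0%). At an unadjusted p, the ageing effect was lower in gastrocnemius for Elovl6 (-1.67 ± 0.57, p = 0.00489), Fasn (-1.301 ± 0.50, p = 0.0109), Thrsp (-0.71 ± 0.29, p = 0.0177), Slc25a1 (-0.87 ± 0.36, p = 0.0192) and Acaca (-0.58 ± 0.25, p = 0.0256). Over all genes, 232 of 15433 had an unadjusted edgeR p under 0.05 for the difference of the ageing effect. None was called, and the members named here moved together between libraries, so they are not separate results. For the exercise effect 0 members were called as well (0 of 15433 genes, 0%). Only Elovl6 of the 9 had an unadjusted edgeR p under 0.05, at 1.21 ± 0.51 higher in gastrocnemius (p = 0.0208), where 357 of all genes tested had one.

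Both comparisons share the 18-month sedentary libraries, so they are not independent. The comparison of exercised 18-month with sedentary 10-month mice is the sum of the ageing and exercise contrasts and is not an independent result. In quadriceps 7 of 9 members were called, all higher, where 5.76% of genes were called higher: Slc25a1 (1.67 ± 0.21, adjusted p = 5.64e-06), Acly (1.65 ± 0.21, 6.72e-06), Acaca (1.04 ± 0.14, 1.45e-05), Elovl6 (2.201 ± 0.31, 2.09e-05), Fasn (1.72 ± 0.30, 0.000354), Thrsp (0.80 ± 0.16, 0.00121) and Scd1 (0.91 ± 0.31, 0.0484). For Slc25a1, Acly, Acaca, Fasn and Elovl6 the groups did not overlap, with all 12 exercised libraries above all 10 younger ones; 0.169% of genes tested did the same. The lowest exercised and the highest 10-month values were 17.0 and 13.7 CPM for Slc25a1, 45.8 and 35.005 for Acly, 25.4 and 23.95 for Acaca, 171 and 123 for Fasn, and 5.18 and 3.41 for Elovl6. Scd1 had the largest adjusted p of the 7: it was called in 7 of 31 fits that leave out 1 library and lost with the adipocyte covariate (0.34, adjusted p = 0.548). Thrsp was also lost with that covariate (0.43, adjusted p = 0.0525), while the other 5 stayed called. Their lowest log2 fold changes under any alternative were 1.17 for Slc25a1, 1.34 for Acly, 0.68 for Acaca, 1.06 for Fasn and 1.77 for Elovl6. The adipocyte marker sum had a median of 103 CPM at 10 months and 193 CPM in exercised quadriceps. Cfd went from 52.8 to 135 CPM, and Lep alone had a lower median (4.81 and 1.42). The part of adipocyte RNA was not tested.

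Gastrocnemius gave 5 called members in that comparison, all higher, where 3.43% of genes were called higher: Slc25a1 (1.303 ± 0.26, adjusted p = 0.0024), Acly (1.36 ± 0.27, 0.00261), Elovl6 (1.75 ± 0.40, 0.00925), Fasn (1.36 ± 0.35, 0.0189) and Acaca (0.67 ± 0.18, 0.0239). All 5 were also called when 3.1 and 2.2 were left out and with the adipocyte covariate, and Acaca and Fasn were lost when only both groups compared entered the fit (5 called against 3). Each was called in all 33 fits that leave out 1 library. Only Lep of the adipocyte markers was called, and it fell (-2.42, adjusted p = 0.000299). Me1 had -0.19 ± 0.07 (0.0983) and Srebf1 was not called (0.979); in quadriceps the same genes had adjusted p-values of 0.0807 and 0.95.

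As given above, the muscles did not differ by a called amount in the ageing or the exercise effect for any of the 9 members. By fitted value alone, level differences between the muscles were largest in sedentary 18-month mice. There 7 of 9 members were lower in gastrocnemius, where 6.09% of 15433 genes were called lower: Fasn (log2 difference -2.23 ± 0.37, adjusted p = 9.31e-06), Elovl6 (-2.22 ± 0.40, 5.8e-05), Scd1 (-1.70 ± 0.37, 0.000667), Slc25a1 (-1.48 ± 0.26, 2.74e-05), Thrsp (-1.42 ± 0.21, 1.09e-06), Acly (-1.17 ± 0.27, 0.00119) and Acaca (-0.62 ± 0.18, 0.0138). In exercised mice 6 were lower, where 8.85% of genes were; Fasn was then at -1.303 ± 0.31 (0.00178), Elovl6 at -1.01 ± 0.32 (0.019) and Acaca was not called (-0.42 ± 0.16, 0.05). At 10 months Thrsp alone was called (-0.71 ± 0.20, adjusted p = 0.015), where 4.17% of genes were called lower. Me1 and Srebf1 were not called in any of the 3 groups in this fit, with adjusted p-values of 0.868 and 0.435 in sedentary 18-month mice. Of the 8 adipocyte markers, 1, 6 and 6 were called lower in gastrocnemius at 10 months, 18 months sedentary and 18 months exercised; the part of fat in the level difference was not tested.

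**Figure D3:**
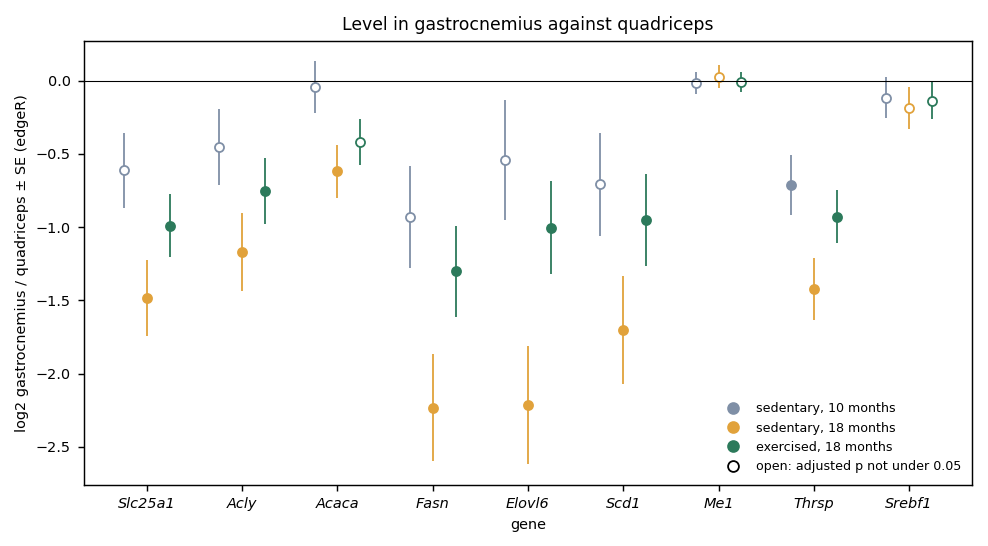
Log2 difference of level, gastrocnemius against quadriceps, ± SE for the 9 genes in each group; filled points passed an adjusted p of 0.05 and the line marks equal levels. The sedentary 18-month points are lowest for every gene but Me1, which lies near 0 in every group.

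In sedentary 18-month mice, spinal cord had a higher median TPM than both muscles for 8 members, a level that was not tested. Its differences between groups were small. For ageing, Srebf1 rose by 0.14 ± 0.04 (adjusted p = 0.0336; 138, 140 and 155 CPM at 10 months against 141, 159 and 181 at 18) and Acly fell by 0.11 on the log2 scale (SE 0.03, adjusted p = 0.0495; 443, 488 and 549 CPM against 408, 461 and 500). These were 2 of 9, where 5.35% of 18956 genes tested were called in either direction. Without cord libraries 5.2 and 6.1 neither was called. The highest Srebf1 value in the older group belonged to 5.2 and the lowest Acly value to 6.1. Leaving out 1 library gave 0 called members without 1.1, 1.2, 2.2, 2.3 or 6.4, and 1 or 2 otherwise. Exercise gave 0 of 9 members, where 0% of all 18956 genes tested were called (2565 genes had an unadjusted p under 0.05, and DESeq2 and voom also called 0 members); log2 fold changes ran from -0.13 to 0.09, and 1 member, Slc25a1, had an unadjusted p under 0.05 (-0.13 ± 0.06, p = 0.0419). Exercised 18-month against 10-month mice gave 0 of 9, where 1.51% of genes were called.

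Whether the exercise effect differed between cord and the mean of both muscles was tested directly. It was lower in cord for Slc25a1 (-1.17 ± 0.23, adjusted p = 0.00292), Acly (-1.097 ± 0.24, 0.0102), Elovl6 (-1.23 ± 0.33, 0.0417) and Thrsp (-0.76 ± 0.20, 0.0434), 4 of 9 members where 0.603% of 19735 genes were called lower. Slc25a1 and Acly were called under all 5 alternatives tried, Elovl6 under 4 and Thrsp under 2. The adipocyte covariate was not among these alternatives. The difference of the ageing effect was called for 0 of 9, where 2.61% of genes were called. Srebf1 (0.34 ± 0.15) and Elovl6 (-0.84 ± 0.36) had unadjusted edgeR p-values of 0.022 and 0.0228. Of all 19735 genes tested, 4027 had an unadjusted p under 0.05, so these 2 do not set the members apart. The cord libraries had adipocyte marker sums of 5.75 to 13.8 CPM, and only 3 of the 8 markers passed the filter there. Most of the cord sum was Acvr1c, with medians of 6.74 CPM at 10 months, 4.96 at 18 months sedentary and 5.27 exercised. Adipoq, Lep, Plin1, Cidec, Retn and Cfd had cord medians of 0.318 CPM or less, so this sum does not measure fat there.

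Library-to-library spread was compared between exercised and sedentary 18-month mice, as the mean absolute deviation from the group median of log2 CPM. Limma called 0 of 9 members in any tissue, and 0% of all genes tested. In gastrocnemius all 9 members had a higher fitted spread among exercised libraries, by 0.08 to 0.36 on the log2 scale (median 0.20). The median over all genes tested was 0.02. The smallest unadjusted limma p was 0.0654 (Acly). Most members moved together between libraries, so the 9 values are not separate events. Scd1 spread more in sedentary 10-month libraries (0.94) than in exercised ones (0.57), Fasn about as much (0.68 and 0.69), and the other members less. In quadriceps 7 of 9 had a lower fitted spread among exercised libraries (-0.43 to 0.08), beside a median of 0.03 over all genes tested. The smallest unadjusted limma p was 0.0925. In cord, limma gave Fasn (-0.10 ± 0.04, p = 0.0235) and Acly (-0.05 ± 0.02, p = 0.0465) less spread with exercise before adjustment (adjusted p = 0.608 for both). There 1429 of 18956 genes had an unadjusted limma p under 0.05, and the median difference over all genes tested was -0.03. Elovl6 in exercised gastrocnemius spanned 1.12 to 28.3 CPM (library 9.1, the next being at 4.47 CPM), where exercised quadriceps spanned 5.18 to 14.96 CPM.

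Members moved together between libraries of a group. With group means removed, the 7 members other than Me1 and Srebf1 had a median pairwise Pearson r of 0.81 over 33 gastrocnemius libraries (lowest pair 0.47) and 0.85 over 31 quadriceps libraries (lowest 0.53); the points share library depth and composition, and the median for pairs among 3000 tested genes was -0.0016 and -0.0021. Without library 9.1 the gastrocnemius median was 0.71. Me1 had a median r of 0.18 and 0.10 with the other members, and Srebf1 of 0.50 and 0.31, in gastrocnemius and quadriceps. Srebf1's quadriceps value rested on library 3.1: without it the median was 0.068, with a lowest pair of -0.12, and in gastrocnemius it was 0.42 without 3.1 and 2.2. Me1 had 0.12 in gastrocnemius without library 9.1 and 0.079 in quadriceps without 3.1. In cord the median of the same 7 was 0.11, ranging from -0.74 (Elovl6 with Thrsp) to 0.89 (Slc25a1 with Thrsp). These are descriptions.

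**Figure D4:**
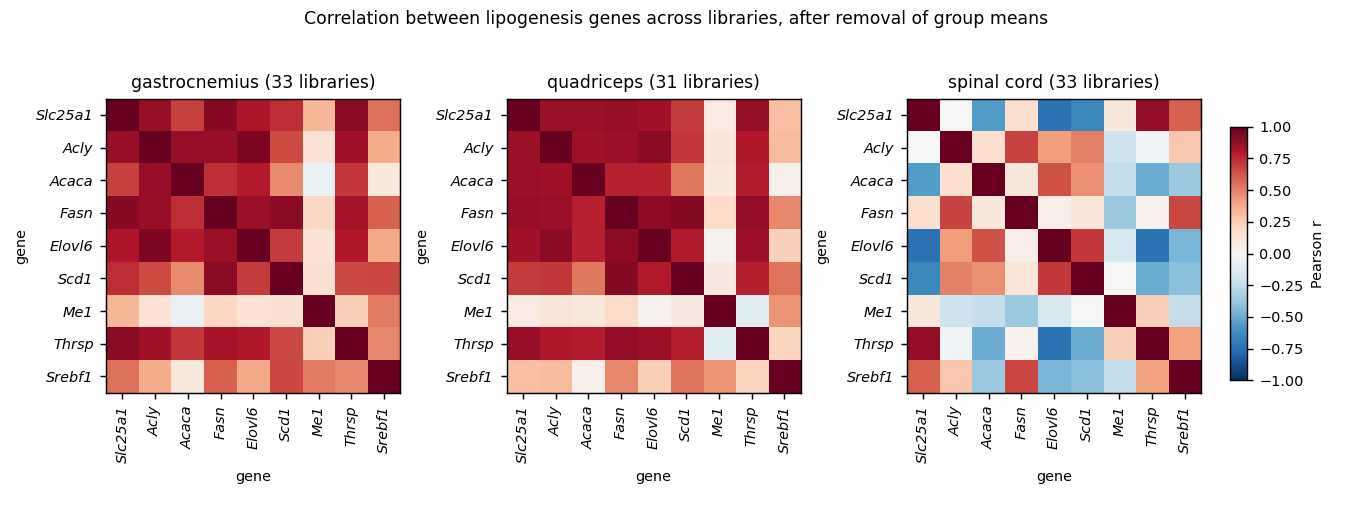
Pearson r between each pair of genes across libraries after group means were removed, for 33 gastrocnemius, 31 quadriceps and 33 cord libraries. The 7 genes other than Me1 and Srebf1 are red with each other in both muscles. Me1 is mostly pale, with a highest r of 0.52 in gastrocnemius and 0.45 in quadriceps. Srebf1 lies between, with a median r of 0.50 and 0.31, and cord shows pairs of both signs.

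The mean of the members' scaled values had r = 0.71 with the log2 adipocyte marker sum in gastrocnemius (0.60 without libraries 9.1 and 7.1) and 0.56 in quadriceps (0.40 without 5.2 and 9.2). In cord, where the sum was mostly Acvr1c, it was -0.01. Without the libraries that stand apart the values were 0.74 in gastrocnemius and 0.70 in quadriceps. Of the 12 marker lists computed, those of astrocytes (0.54 in gastrocnemius and 0.53 in quadriceps) and fibroblasts (0.48 and 0.52) had similar values with all libraries. These were 0.39 and 0.28, and 0.29 and 0.16, without the libraries that stand apart. The genes whose pattern was most like the members' mean in both muscles, of 10453 ranked, were Pygl (glycogen phosphorylase; r = 0.85 in gastrocnemius and 0.90 in quadriceps), Slc25a10 (the dicarboxylate carrier; 0.84 and 0.82), Cdo1 (0.80 and 0.79), Agpat2 (0.79 and 0.78), Retn (resistin, also on the adipocyte list; 0.78 and 0.77), Hsd17b12 (0.83 and 0.77), Tkt (transketolase; 0.76 and 0.78) and Tmem45b (0.75 and 0.83). Without library 9.1 the gastrocnemius values of these genes ran from 0.53 (Tkt) to 0.79 (Slc25a10), with Agpat2 at 0.64 and Pygl at 0.73. In cord, of 13284 ranked, the genes most like the members' mean were Llgl1 (0.81), Myo1d (0.78), Gna12 (0.77), Pacs2 (0.77) and Gpr37 (0.77).

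**Figure D5:**
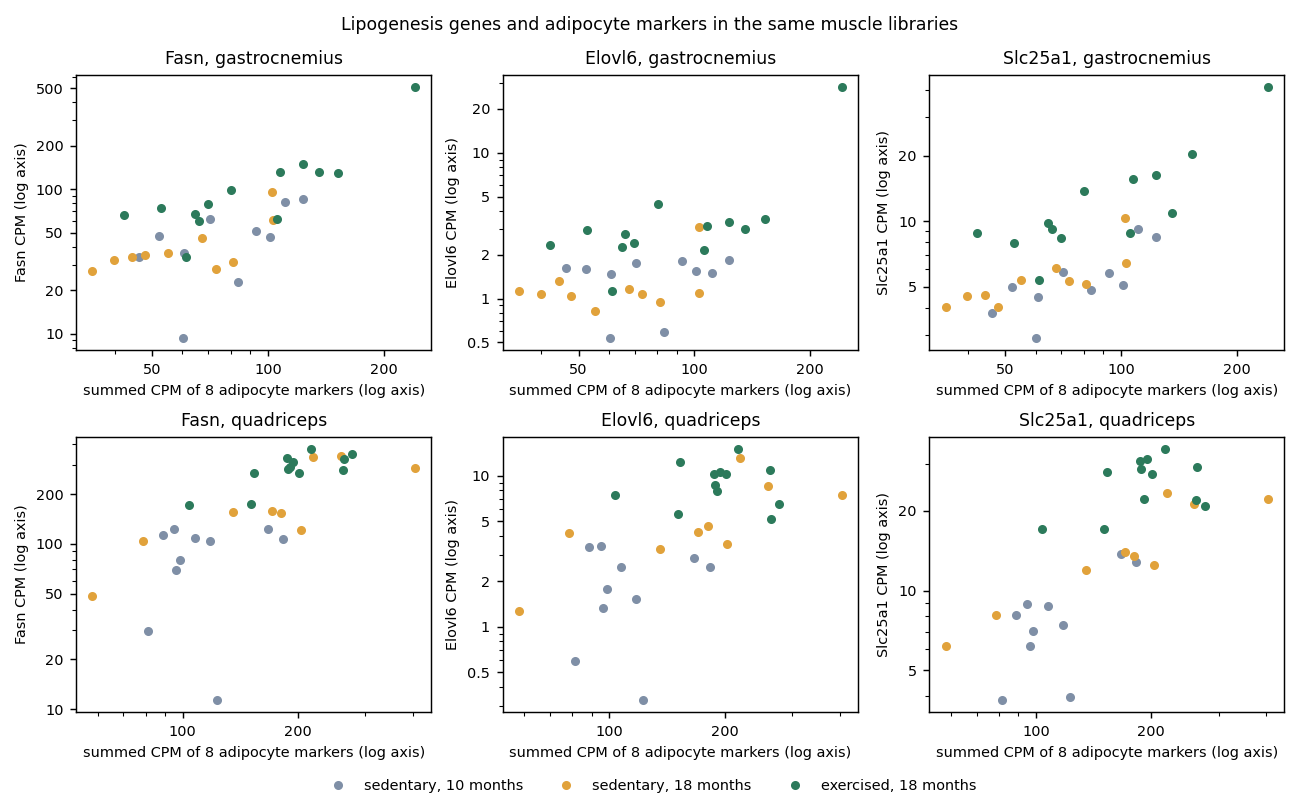
CPM of Fasn, Elovl6 and Slc25a1 against the summed CPM of 8 adipocyte markers (log axes), for every gastrocnemius and quadriceps library, coloured by group. Gastrocnemius library 9.1 is the point at 241 CPM of markers, and within groups the libraries with more marker RNA tend to hold more of the members.

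Lists of related genes were read from the same fits. With exercise in gastrocnemius, 0 of the tested members of all 7 related lists were called, where 0.106% of all genes were. In quadriceps, where 0.757% of all genes were called, Acss2, which makes acetyl-CoA from acetate (0.43 ± 0.09, adjusted p = 0.00882), and Mid1ip1, a partner of Thrsp and activator of acetyl-CoA carboxylase (0.82 ± 0.20, 0.0342), were the 2 called of 8 other fatty acid synthesis genes, whose median was 0.15 against -0.0031 for all genes. Of 9 NADPH genes 1 rose, Nnt (0.43 ± 0.07, 0.00134), and of 13 glycerolipid genes 1, Dgat2, which makes triglyceride (0.46 ± 0.11, 0.027). Elongases and desaturases, SREBP control, carbohydrate response and cholesterol synthesis genes gave 0 called. For ageing 0 of these genes were called in either muscle (0.153% of all genes in gastrocnemius and 0.352% in quadriceps).

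In quadriceps of exercised 18-month against 10-month mice, where 5.76% of all genes were called higher, 6 of 9 NADPH genes rose, among them Nnt (0.59 ± 0.07, adjusted p = 1.82e-06), Tkt (1.097 ± 0.14, 6.97e-06), G6pdx, the entry of the pentose phosphate route (0.53 ± 0.10, 0.000735), and Idh1 (0.36 ± 0.08, 0.00477); the list's median was 0.36 and that of all genes -0.01. Of 12 elongases and desaturases 3 rose, Hsd17b12 (0.51 ± 0.10), Fads2 (0.60 ± 0.15) and Fads1 (0.58 ± 0.15), and Hacd3 fell. Of 8 other fatty acid synthesis genes Acss2 rose (0.49 ± 0.08, adjusted p = 0.000261) and Acss1 fell (-0.67 ± 0.20, 0.0281). Of 19 cholesterol genes 3 rose (Nsdhl, Lss and Cyp51), and of 13 glycerolipid genes Agpat2 (0.86 ± 0.16) and Dgat1 rose while Gpam and Lpin1 fell. In gastrocnemius, where 3.43% of all genes were called higher, 2 of 9 NADPH genes rose, Nnt (0.38 ± 0.07) and Idh1 (0.34 ± 0.07). There Acss2 rose (0.35 ± 0.09, adjusted p = 0.0202) and Acacb fell (-0.29 ± 0.09, 0.041) of the 8 other fatty acid synthesis genes. Of 12 elongases and desaturases Fads1 rose (0.54 ± 0.15, 0.0248) and Hacd3 fell (-0.21 ± 0.05, 0.0152). Of 13 glycerolipid genes Lpin1 (-0.46 ± 0.13, 0.0248) and Gpam (-0.23 ± 0.07, 0.0466) fell and 0 rose, and of 19 cholesterol genes 1 rose, Cyp51 (0.38 ± 0.10, 0.0258). None of 11 SREBP control genes and none of 7 carbohydrate response genes was called in this comparison in either muscle.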

How the data were processed

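Polyadenylated RNA from whole tissue of perfused mice was sequenced, per the labels' protocols. The authors deposited gene counts, FPKM and TPM in tables of 35870 genes, with another column, gene length in bases; STAR 2.5.2b and GRCm38.p5 stand in the submitters' processing notes, while the sources used here give neither the counting tool nor its strand setting. The deposited counts were used for tests and the deposited TPM for levels between genes; the deposited FPKM were only checked to follow from counts and lengths. Of 99 labelled samples 97 were used, and 2 quadriceps samples were not analysed here; 49 rows without a symbol stayed in the fits.

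Each tissue's 3 groups entered 1 edgeR 4.0.16 quasi-likelihood fit (R 4.3.3; TMM, filterByExpr with a minimum count of 10 and a minimum total of 15), with Benjamini-Hochberg adjustment over all genes tested and a threshold of 0.05. Differences between tissues used 1 fit over their groups. Spread was tested with limma 3.58.1 on log2 CPM with a prior count of 2. Genes named were the 9 members in every comparison, up to 4 called genes per related list by smallest p, and the genes most like the members' mean. Alternatives were RLE factors, no filter, libraries left out, an adipocyte covariate, fewer groups, title number blocks, limma voom and DESeq2 1.42.0; the title number block without the libraries that stand apart was added after seeing the data. The members and lists were chosen with earlier results of these data known. The fits were tested on simulated data. Library totals of 29063006 to 62769274 counts leave Elovl6 in muscle, with a median count of 102, as the least precise member.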

Additional observations from a re-analysis of the deposited data

Results flagged for a closer look

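In 8 of 54 pairs of a gene and a group of 9 or 10 libraries, 1 library stood far from the others by Dixon's criterion, which flags about 1 group in 20 by chance; exercised groups hold more than 10 libraries and were not tested. Gastrocnemius library 9.3 (sedentary, 18 months) gave 5 of these, each as the highest: Slc25a1 at 10.38 CPM (next 6.403), Acly at 29.7 (20.1), Fasn at 95.0 (60.7), Elovl6 at 3.08 (1.32) and Thrsp at 17.0 (11.4). These 5 genes thus share 1 library and are not separate events. Library 3.1 (10 months) was the lowest for Srebf1 in both muscles, at 33.4 CPM in gastrocnemius (next 68.4) and 38.4 CPM in quadriceps (next 73.4). Cord library 5.2 was the lowest for Me1, at 81.9 CPM (next 95.1).

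The exercise effect differed between cord and the mean of both muscles, by the test of the difference itself in edgeR, for Slc25a1 (-1.17 on the log2 scale), Acly (-1.097), Elovl6 (-1.23) and Thrsp (-0.76), each lower in cord.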

How the results depend on the processing

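The number of members called in gastrocnemius for exercise was 3, and it was 7 without the libraries that stand apart, 0 with the adipocyte covariate, 5 with only both groups compared, 6 with limma voom, 6 with DESeq2, and 7 with the first part of the title number as a block. For exercised 18-month against 10-month gastrocnemius it was 5, and 3 with only both groups compared. Quadriceps ageing gave 1, and 0 with the adipocyte covariate or only both groups, 5 with voom and 3 with DESeq2. Quadriceps exercise gave 1, and 2 without the library that stands apart, with the adipocyte covariate, with only both groups or with DESeq2, 4 with voom and 0 with the first part of the number as a block. Cord ageing gave 2, and 0 without the low-count filter, without the libraries that stand apart, with the adipocyte covariate or with only both groups. The adipocyte sum in cord was mostly Acvr1c and does not measure fat there. Cord exercised 18 against 10 months gave 0, and 1 without the libraries that stand apart or with only both groups, and 3 with voom. The cord against muscle difference of the exercise effect gave 4, and 2 without the low-count filter. Leaving out 1 library at a time gave 0 to 7 members for gastrocnemius exercise, 5 to 6 for its 10-month contrast, 0 to 4 for quadriceps ageing, 0 to 2 for quadriceps exercise, 6 to 8 for its 10-month contrast and 0 to 2 for cord ageing. The causes were not tested. Same-numbered gastrocnemius and quadriceps libraries had a correlation of deviations over 0.1 in 28 of 31 pairs (median 0.27), and 24 matched their own number best, which is a hint from the data and not from the design; gastrocnemius and cord did in 14 of 33. With the replicate block on that number, the level difference between muscles at 10 months gave 4 members in place of 1, and 4 also without the libraries that stand apart. At 18 months it gave 8 in sedentary and 8 in exercised mice in place of 7 and 6, adding Srebf1 in both and Acaca in exercised mice; it changed no other count of members by over 1.5 times. Of 4482 member values under alternatives 92 had another sign, none of them among the values tested at an unadjusted p under 0.05 or in muscle exercise. Depth limits Elovl6 in muscle most, whose lowest count was 14.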

Other observations

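Libraries that carry the same title number in both muscles varied together for some members, after group means were removed (31 numbers; the labels do not say that a number marks a mouse). Srebf1 had the highest Pearson r of the 9, at 0.87 (0.77 without the 2 farthest libraries), beside a median of 0.38 over 14656 genes. Me1 had 0.63 (0.40 without the 2 farthest) and Scd1 0.73, which was 0.24 without libraries 3.1 and 2.2. Slc25a1, Acly, Acaca, Fasn, Elovl6 and Thrsp lay between 0.06 and 0.44 with all libraries and between 0.32 and 0.64 without library 9.1. Without libraries 3.1 and 2.2 instead, these genes lay between -0.001 (Acaca) and 0.29 (Acly). The libraries numbered 9.1 in each muscle went apart. Gastrocnemius 9.1 held the highest exercised values of 7 members, and quadriceps 9.1 the lowest exercised values of Fasn, Scd1 and Thrsp. Over 14656 genes their deviations had r = -0.15, the lowest of the 31 numbers, so this was not particular to the members.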
